A study of Caenorhabditis elegans with 24 samples.

Results

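The pharynx of Caenorhabditis elegans is a neuromuscular pump at the front of the gut, and its muscle cells build their filaments from isoforms that body wall muscle does not rely on. Myosin heavy chains pull on thin filaments, and troponin C, troponin I and troponin T form the calcium switch on the thin filament that lets them do so. In this animal the pharynx and the body wall carry separate genes for most of these subunits, so that transcripts of each muscle can be read side by side in RNA of whole worms. The set examined here holds 7 genes of the 46739 features in the table, chosen by name for their known place in pharyngeal muscle. They are the myosin heavy chain genes myo-1, myo-2 and myo-5, the troponin C gene tnc-2, the troponin I gene tni-4, the troponin T gene tnt-4, and ceh-22, which encodes an NK-2 homeodomain factor known to activate myo-2.

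Poly(A) RNA of whole worms was sequenced 8, 48 and 96 h after a blunt mechanical injury, in 6 groups of 4 libraries, 1 injured and 1 age-matched control group at each time. Every group was labelled as N2 wild type, was kept at 25 °C and was maintained on RNAi of the cell division gene cdc-25.1, which makes adults sterile, so the controls carried that treatment as well. Injured worms were agitated on the first day of adulthood and controls were handled without agitation. No group went without the RNAi treatment, and figure legends of the study name the temperature-sterile strain CF512 where the labels give N2, so the labels were followed. Expression was read as RPKM, the reads per kilobase of exon scaled to the mapped reads of the library, which allows levels to be compared between genes. In RNA of whole animals, fewer cells of a type and less RNA per cell cannot be told apart.

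The genes lie on 5 chromosomes of the ce11 assembly. myo-1 spans I:7258946-7267057 on the minus strand, myo-2 spans X:12468061-12475348 on the plus strand and myo-5 spans V:8108970-8118131 on the plus strand. The troponin genes are shorter, with tnc-2 at II:10466852-10468358 (plus), tni-4 at IV:5204591-5207124 (plus) and tnt-4 at V:1989471-1992918 (minus), and ceh-22 lies at V:10671918-10675769 (plus). The annotated exons cover 6457, 6334 and 6296 bases for myo-1, myo-2 and myo-5, 819, 821 and 1366 bases for tnc-2, tni-4 and tnt-4, and 2369 bases for ceh-22. Exons of tnc-2 share 157 bases with clec-143 on the opposite strand, and exons of tni-4 share 16 bases with Y59E9AL.36 on the opposite strand, and the strand setting of the counting is not given in the sources used here. clec-143 stayed at or below 0.88 RPKM, and Y59E9AL.36 ranged over 18.3 to 52.5 RPKM with a log2 change at 96 h of 0.54, opposite in sign to that of tni-4. The other 5 genes overlap no other coding gene.

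By group mean, tni-4 was the most abundant of the 7 transcripts in all 6 groups, tnc-2 came next and ceh-22 was last. The range of tnc-2 overlapped that of the next gene in injured worms at 8 h and in controls at 48 h. Mean tni-4 levels ran between 31.04 and 72.1 RPKM over the 6 groups, and mean tnc-2 levels between 5.88 and 19.9 RPKM. myo-1, myo-2, myo-5 and tnt-4 lay close together, with means between 1.96 and 11.02 RPKM, and neighbours in their order overlapped in every group. Ranks further apart could hold, as in controls of 96 h, where the lowest myo-5 library, at 5.67 RPKM, exceeded the highest of myo-1, at 5.49 RPKM. ceh-22 averaged 0.43 to 1.00 RPKM, reached 1 RPKM in only 3 libraries and did not pass the filter on low values, which the 6 filament genes passed. At the depths recovered, 19775000 to 30400000 mapped reads in 23 libraries, the estimated number of reads behind a value was 282 to 1764 for myo-1 and 538 to 1334 for tni-4, against 9 to 96 for ceh-22.

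**Figure D1:**
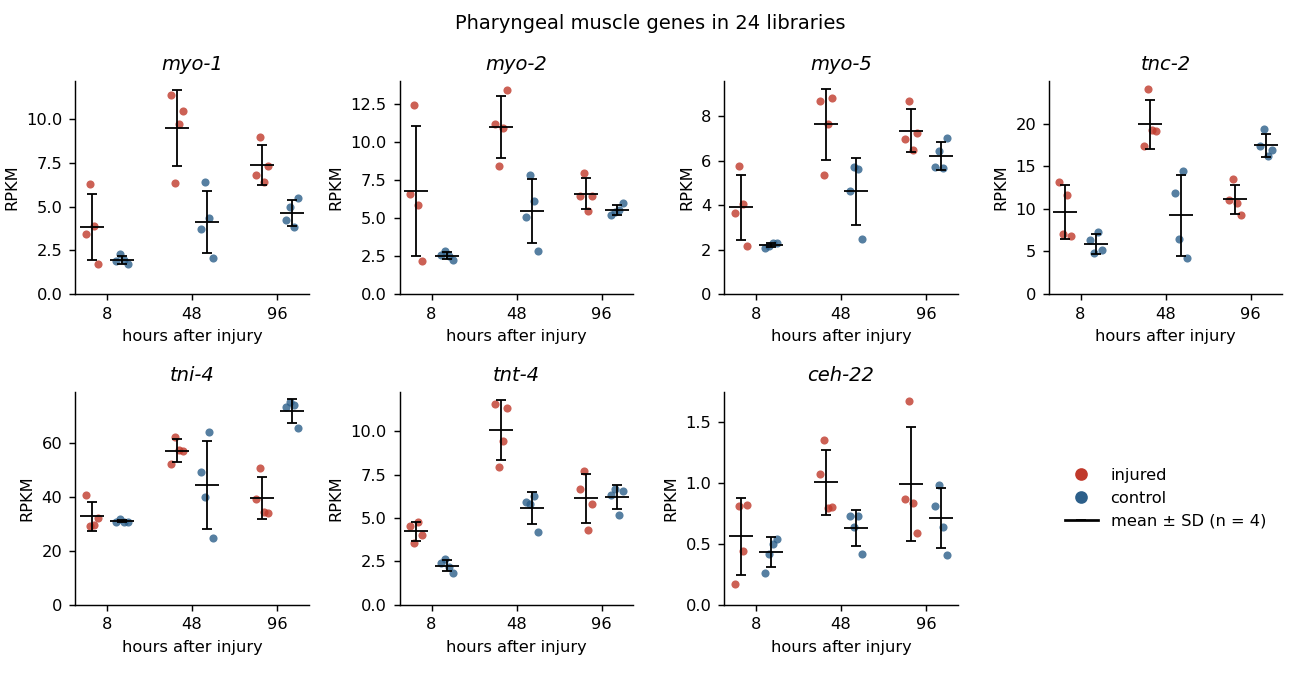
Level of each gene in RPKM (vertical axes, from 0, a scale of its own for each gene) against hours after injury, with 4 injured libraries to the left of 4 control libraries at each time and the mean and SD of each group. tni-4 is highest throughout, and at 96 h its 4 injured libraries, 34.2 to 50.8 RPKM, lie below the 4 control libraries, 65.5 to 75.3 RPKM.

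Some libraries stood apart before any gene was compared. The share of rRNA was 7.82% and 5.08% in libraries 4 and 2 of the injured worms at 8 h, 46.1% and 8.29% in libraries 4 and 2 of the controls at 48 h, and 0.659 to 2.99% in the remaining 20. The size factor of control 48 h library 4, its typical level against all libraries, was 0.473, so results at 48 h are given as deposited and after median-of-ratios scaling, which divides each library by its size factor. Libraries also differed in the balance of long and short transcripts, measured as the median log2 deviation of transcripts of at least 5000 bases minus that of transcripts of at most 1000 bases. This balance was -0.57 to 0.91 in injured and -0.14 to 0.08 in control worms at 8 h, -0.61 to 0.02 and 0.01 to 0.68 at 48 h, and -0.32 to -0.16 and -0.08 to 0.17 at 96 h. It was highest in injured 8 h library 2 and lowest in injured 48 h library 2 and injured 8 h library 4. A fit with this balance as a covariate was added after the data had been seen, and its values stand beside the results they touch. The balance separated injured from control libraries at 96 h and almost did so at 48 h. At those times the fit cannot tell the balance and injury apart. The RNAi target cdc-25.1 differed between injured and control worms by 0.02, 2.26 and 1.75 on the log2 scale at 8, 48 and 96 h, with the test passed at 48 and 96 h.

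In uninjured worms the 6 filament genes were all higher at 96 h than at 8 h, by 1.99 to 2.84 fold. myo-1 measured 1.88, 2.27, 1.98 and 1.71 RPKM in the controls of 8 h, 3.72, 6.40, 4.34 and 2.07 in those of 48 h, and 4.23, 5.01, 3.87 and 5.49 in those of 96 h. The lowest control library of 96 h thus exceeded the highest of 8 h, while the controls of 48 h spread across both. tni-4 measured 30.9, 31.7, 30.8 and 30.8 RPKM at 8 h, 49.1, 40.20, 64.03 and 24.98 at 48 h, and 73.4, 75.3, 74.2 and 65.5 at 96 h. Its 4 controls of 8 h differed by less than 1 RPKM, and the low value at 48 h belonged to library 4, the one richest in rRNA.

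The log2 change of the controls between 8 and 96 h was 1.06 (SE 0.27, adjusted p = 0.00104) for myo-1, 0.99 (SE 0.30, adjusted p = 0.00416) for myo-2 and 1.31 (SE 0.24, adjusted p = 2.2e-05) for myo-5 (limma, two-sided). For the troponins it was 1.51 for tnc-2, 1.20 for tni-4 and 1.28 for tnt-4, with adjusted p of 6.63e-06, 6.58e-06 and 3.99e-06 from the same limma fit. Thus 6 of the 6 tested members were higher, where 62.1% of the 14813 features tested were called in either direction and 36.2% were called higher. The members' median change was 1.24 and the median over all features was 0.19. Each of the 6 calls held in all 20 alternative settings tried for it. ceh-22, not tested in this fit, averaged 0.43 RPKM at 8 h, 0.63 at 48 h and 0.71 at 96 h, with overlapping ranges.

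The myosins and tnt-4 had already passed the test at 48 h, while tnc-2 and tni-4 passed between 48 and 96 h. Between 8 and 48 h the controls were higher in 4 of 6 members (48.7% of all features called, 18.8% higher and 30.0% lower), with log2 changes of 0.83 for myo-1, 0.90 for myo-2, 0.86 for myo-5 and 1.13 for tnt-4. The calls of myo-1 and myo-2 were lost without control 48 h library 2 (0.61 and 0.72), which had 8.29% rRNA and the highest balance of long transcripts among the controls. With median-of-ratios scaling 6 of 6 passed. Between 48 and 96 h, tnc-2 and tni-4 were higher, by 1.03 and 0.76 on the log2 scale, or 2 of 6 members against 12.9% of all features called, 11.7% higher and 1.26% lower. Without the 4 libraries over 5% rRNA neither passed (0.40 and 0.36).

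Transcripts of other muscles went in mixed directions. Of 9 myosin and troponin genes outside the set, 0 were higher and 3 lower in controls at 96 h than at 8 h, with a median log2 change of -0.32. Of all features 36.2% were called higher and 26.0% lower. The body wall troponin C gene pat-10 fell by 0.63 and the body wall troponin I gene unc-27 fell by 0.60, while myo-3, a body wall myosin, changed by 0.37 (limma adjusted p = 0.216) and mup-2, body wall troponin T, by 0.04 (limma adjusted p = 0.862). Among 10 body wall markers, a list that shares several of these genes, 4 were higher and 3 lower, near the shares of all features. The 4 that were higher, named after their values were seen, were the giant filament protein genes unc-22 (0.91) and unc-89 (0.89), the adhesion gene unc-112 (0.90) and the muscle regulator gene hlh-1 (0.89). The third gene that fell was tnt-2, a troponin T gene, at -1.57. Markers of the germline fell in 8 of 8 cases over the same interval, and their summed level was 736 to 1057 RPKM in controls of 8 h and 220.5 to 331 RPKM in controls of 96 h. Neuronal markers were higher in 7 of 8 cases (median log2 change 1.02) and intestinal markers in 4 of 6 (median 0.72), beside the median of 1.24 of the filament genes. The part of these shifts in the rise of the filament genes was not tested, and a ratio of 2 muscle genes within 1 library is the same under any scaling of that library.

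Such ratios were formed for 5 pairs, each of a pharyngeal gene over a body wall gene of the same role, in RPKM. Which body wall myosin gene was set under myo-1 and which under myo-2 was a choice, and myo-5 was in no pair. The pairs were matched by role, but the comparison was added after the values of these genes had been seen, so its p-values describe the libraries and are no independent support. In the controls of 8, 48 and 96 h tnc-2 over pat-10 averaged 0.00788 ± 0.00206, 0.0198 ± 0.0045 and 0.0360 ± 0.0035 (SD, n = 4 each). tni-4 over unc-27 was 0.0975 ± 0.0132, 0.208 ± 0.036 and 0.341 ± 0.032 at the same times (SD, n = 4). All 5 ratios were higher in the controls of 96 h than in those of 8 h without overlap, by 4.66 fold for tnc-2, 3.51 fold for tni-4, 2.94 fold for myo-1 over unc-54, 2.67 fold for tnt-4 over mup-2 and 1.68 fold for myo-2 over myo-3. The exact two-sided permutation p was 0.0286 for each, the smallest that 4 against 4 libraries can give, and 0.052 after Benjamini-Hochberg adjustment over the 20 comparisons of ratios made, of which 0 passed 0.05 after adjustment and 11 had the smallest p. How many other gene pairs separate without overlap was not computed, and 62.1% of single features were called between these controls. The denominators include pat-10 and unc-27, which fell. They include none of the 4 body wall markers that rose, so the ratios describe these pairs and not body wall muscle in general.

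The first injury comparison asked which filament transcripts differed early. At 8 h myo-2 and tnt-4 were higher in injured worms, by 2.08 and 1.72 fold in the fit, while tni-4 hardly differed. tnt-4 measured 4.56, 3.55, 4.79 and 4.03 RPKM in injured worms, against 2.38, 2.63, 2.16 and 1.86 in controls. Every injured library exceeded every control for this gene, the only tested member with no overlap at 8 h, where 26.4% of all features showed none, 12.0% with the injured libraries above and 14.4% with them below. myo-2 measured 6.62, 12.48, 5.88 and 2.16 RPKM in injured worms, against 2.57, 2.83, 2.50 and 2.26 in controls. Injured libraries 1, 2 and 3 lay above all controls and injured library 4 lay below them. tni-4 measured 40.6, 29.2, 29.7 and 32.1 RPKM in injured worms, against 30.9, 31.7, 30.8 and 30.8 in controls, so that injured libraries fell on both sides of the controls.

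The log2 change at 8 h was 1.05 (SE 0.30, adjusted p = 0.0076) for myo-2 and 0.78 (SE 0.22, adjusted p = 0.00626) for tnt-4 by limma, and 0.07 (adjusted p = 0.869) for tni-4. myo-1, myo-5 and tnc-2 had values of 0.72, 0.64 and 0.63 that did not pass (limma adjusted p = 0.053, 0.0563 and 0.0806). So 2 of 6 members were higher and 0 lower, against 22.4% of all features called, 11% higher and 11.4% lower. With median-of-ratios scaling 5 of 6 were higher, all but tni-4. The count was also 5 without injured 8 h library 4, which had the lowest value of each myosin in its group, and 5 without control 48 h library 4 and 4 without control 48 h library 3, which enter this comparison only through the shared estimate of the spread and its adjustment. tnt-4 passed in all 20 alternatives, whereas myo-2 no longer passed in 2 of them. These were without injured 8 h library 2, the library with the highest myosin values (log2 change 0.70, limma adjusted p = 0.0665), and with only the groups compared (log2 change 1.05, limma adjusted p = 0.0626). The limma adjusted p of myo-2 ranged from 2.62e-05 to 0.0665 over the 20 alternatives. The exact two-sided permutation p was 0.0286 for tnt-4 and 0.143 for myo-2.

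The long myosin transcripts varied with the balance of long and short transcripts in these libraries. The injured library with the highest balance, 0.91, had the highest level of all 3 myosins, and the one with the lowest, -0.57, had the lowest. With the balance as a covariate and median-of-ratios scaling, the log2 change at 8 h was 0.64 for myo-1, 0.96 for myo-2, 0.59 for myo-5, 0.70 for tnc-2 and 0.81 for tnt-4, each past the test, and 0.13 for tni-4, which was not. Of 10 body wall muscle markers 4 were higher too and 0 lower, beside 11% of all features called higher and 11.4% lower. The 4 were myo-3 by 1.34 (limma adjusted p = 0.000174), mup-2 by 0.83 (limma adjusted p = 0.00225), unc-89 by 0.98 and unc-112 by 0.58. The other 6 did not pass, with hlh-1 lowest at -0.16, and the median log2 change of the 10 was 0.66. None of the 10 markers was at 0 in any library, and their summed level was 1336 to 2130 RPKM in injured worms and 1242 to 1560 RPKM in controls. All 5 ratios of pharyngeal to body wall genes overlapped between the groups at 8 h, with differences of -0.19 to 0.41 on the log2 scale and exact two-sided permutation p of 0.20 to 0.971.

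At 48 h most filament genes were higher in injured worms. tnc-2 measured 17.3, 24, 19.2 and 19.1 RPKM in injured worms, against 11.8, 6.41, 14.5 and 4.21 in controls. myo-1 measured 11.43, 6.38, 9.72 and 10.49 RPKM in injured worms, against 3.72, 6.40, 4.34 and 2.07 in controls. The groups of tnc-2 did not overlap, and those of myo-1 met at injured library 2 and control library 2. myo-2 measured 11.2, 8.45, 10.9 and 13.5 RPKM in injured worms, against 5.10, 7.83, 6.14 and 2.82 in controls, with no overlap. tnt-4 measured 11.58, 7.92, 9.43 and 11.32 RPKM in injured worms, against 5.92, 5.81, 6.29 and 4.20 in controls, again with no overlap. ceh-22 measured 1.07, 1.35, 0.79 and 0.80 RPKM in injured worms, against 0.73, 0.64, 0.73 and 0.42 in controls, which do not overlap either (exact two-sided permutation p = 0.0286). For ceh-22 the fit over all features above 0 gave a log2 change of 0.40 (limma adjusted p = 0.196), and with median-of-ratios scaling the exact permutation p was 0.60.

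The log2 changes at 48 h were 1.17 for myo-1, 1.01 for myo-2, 0.70 for myo-5, 1.20 for tnc-2 and 0.80 for tnt-4, and 0.43 for tni-4, which was not past the test (limma adjusted p = 0.0746). That is 5 of 6 members higher, where 56.1% of all features were called, 45.8% higher and 10.2% lower. Groups that did not overlap were found in 3 of the 6 members, all with the injured libraries above, and in 43.3% of all features, 38.5% with the injured libraries above and 4.83% with them below. The median of all features was itself 0.48, against a median of 0.90 for the members. With median-of-ratios scaling the median of all features was 0.02 and that of the members 0.41, and 2 of 6 passed, myo-1 at 0.69 and tnc-2 at 0.70. In that scaling 4515 features were higher and 4144 lower, against 6791 and 1518 as deposited. tnc-2 passed in all 20 alternatives (log2 change 0.43 to 1.46, limma adjusted p = 1.34e-05 to 0.0433). myo-5 was also lost without control 48 h library 4 (0.46), and the sign of tni-4 turned, to -0.09, with median-of-ratios scaling. With the length balance as a covariate in addition to that scaling, myo-1 stood at 1.39, myo-2 at 1.32, myo-5 at 0.77, tnc-2 at 0.68 and tnt-4 at 0.46, all past the test, and tni-4 at -0.06. The balance almost separated the groups at 48 h, so these values cannot tell it and injury apart.

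**Figure D2:**
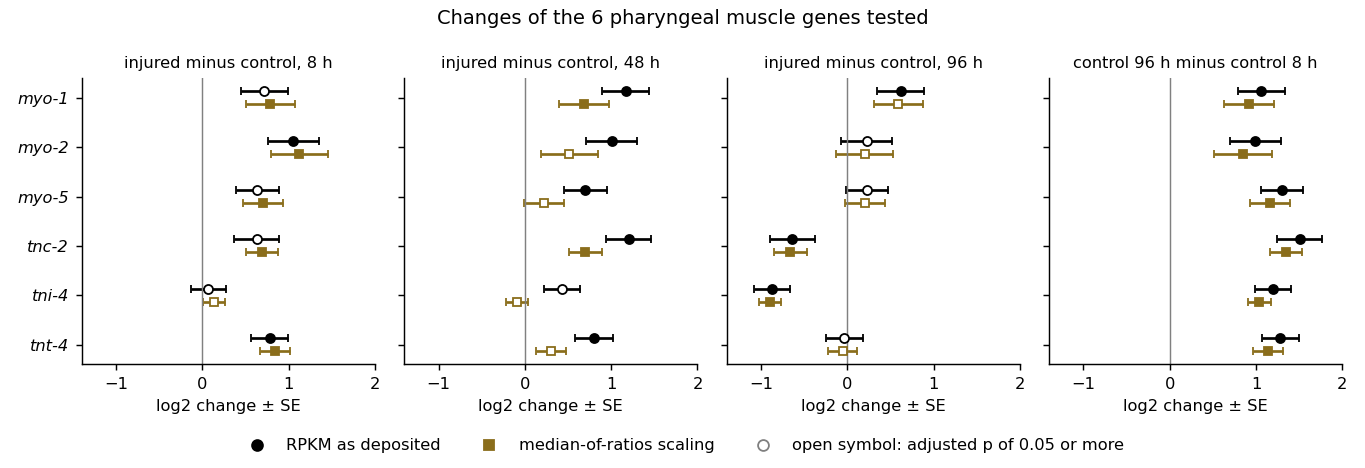
Log2 change with its standard error (horizontal axes) of the 6 tested genes for injured minus control worms at 8, 48 and 96 h and for control worms at 96 h minus 8 h, as deposited (circles) and after median-of-ratios scaling (squares), with filled symbols at an adjusted p below 0.05 by limma. The 6 changes of the controls are filled on both scales, and tni-4 at 48 h lies at 0.43 as deposited and at -0.09 after scaling.

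Relative to body wall counterparts 4 of the 5 pharyngeal transcripts lay higher in every injured library than in any control at 48 h, and these ratios are the same under any scaling of a library. myo-2 over myo-3 averaged 0.524 ± 0.057 in injured worms and 0.184 ± 0.024 in controls (SD, n = 4). It ranged over 0.44 to 0.561 in the 4 injured libraries and 0.163 to 0.212 in the 4 controls. myo-1 over unc-54, the major body wall myosin, was 3.38 fold higher in injured worms, myo-2 over myo-3 2.85 fold, tnc-2 over pat-10 2.48 fold and tni-4 over unc-27 1.91 fold. These 4 ratios did not overlap between the groups (exact two-sided permutation p = 0.0286 each, and 0.052 adjusted over the 20 comparisons, which is not below 0.05), while tnt-4 over mup-2 differed by 1.53 fold with overlap (exact p = 0.0571). Without the 2 control libraries over 5% rRNA the log2 differences were 1.81, 1.49, 1.06, 0.90 and 0.71 in the same order of genes, against 1.76, 1.51, 1.31, 0.94 and 0.61 with all libraries.

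The body wall genes did not pass the test at 48 h as deposited. unc-27 averaged 147 ± 26 RPKM in injured worms and 214 ± 67 RPKM in controls, and myo-3 averaged 20.9 ± 2.1 RPKM in injured worms and 29.3 ± 9.4 RPKM in controls (SD, n = 4). Of the 9 other myosin and troponin genes 0 passed at 48 h as deposited (median log2 change -0.05), where 45.8% of all features were called higher and 10.2% lower. With median-of-ratios scaling 0 of the 9 were higher and 6 lower (median -0.58). At an unadjusted limma p below 0.05 the deposited values gave 1 of the 9, unc-27. Germline markers were higher in 8 of 8 cases, with a summed level of 619 to 1128 RPKM in injured worms and 198 to 368 RPKM in controls, and 7 of 8 neuronal markers were higher as deposited and 3 of 8 after scaling. Their part in the levels of single genes was not tested.

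**Figure D3:**
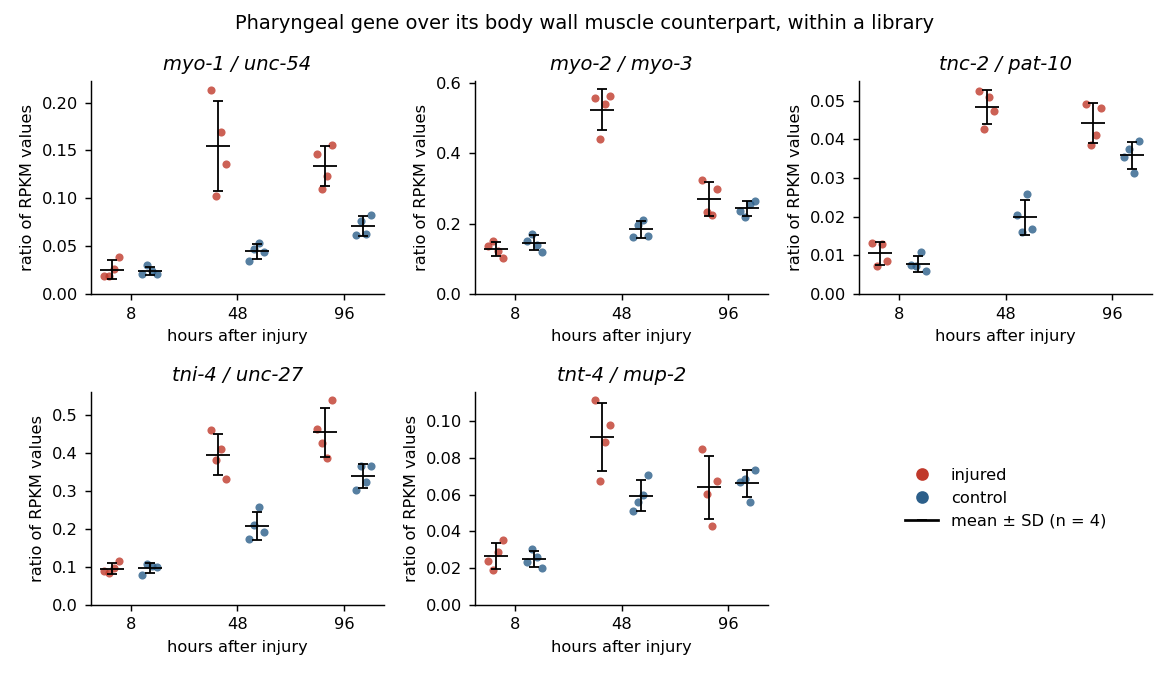
Ratio of the RPKM of each of 5 pharyngeal genes to that of a body wall muscle gene of the same role in the same library (vertical axes, from 0) against hours after injury, with 4 injured libraries to the left of 4 control libraries and the mean and SD of each group. At 48 h the injured libraries lie above all controls in 4 of the 5 panels, and myo-2 over myo-3 reaches 0.44 to 0.561 in injured worms, against 0.163 to 0.212 in controls.

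By 96 h the members had split. tni-4 and tnc-2 were lower in injured worms, at 0.546 and 0.642 of the control level in the fit, myo-1 was higher, and myo-2, myo-5 and tnt-4 did not pass. tni-4 measured 39.2, 50.8, 34.3 and 34.2 RPKM in injured worms, against 73.4, 75.3, 74.2 and 65.5 in controls. tnc-2 measured 10.99, 13.48, 10.64 and 9.31 RPKM in injured worms, against 17.4, 19.3, 16.2 and 16.9 in controls. In both genes the highest injured library lay below the lowest control. myo-1 measured 6.82, 9, 6.43 and 7.33 RPKM in injured worms, against 4.23, 5.01, 3.87 and 5.49 in controls, with every injured library above every control. tnt-4 measured 6.66, 7.72, 4.33 and 5.82 RPKM in injured worms, against 6.32, 6.69, 5.18 and 6.58 in controls, and its injured libraries spread to both sides.

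The log2 change at 96 h was -0.87 (SE 0.21, adjusted p = 0.000474) for tni-4, -0.64 (SE 0.26, adjusted p = 0.033) for tnc-2 and 0.62 (SE 0.27, adjusted p = 0.0476) for myo-1 by limma. It was 0.22 for myo-2, 0.23 for myo-5 and -0.03 for tnt-4 (limma adjusted p = 0.525, 0.435 and 0.903). Hence 1 of 6 members was higher and 2 were lower, against 61.2% of all features called, 32.8% called higher and 28.4% called lower. Groups without overlap were seen in 3 of 6 members and in 66.4% of all features, 36.2% with the injured libraries above and 30.2% with them below, and the share of members called was thus not above that of all features. tni-4 passed in all 20 alternatives (log2 change -1.02 to -0.81). The call of tnc-2 was lost in 6 of 20, among them without injured 96 h library 4 (-0.56), and that of myo-1 in 11 of 20, among them median-of-ratios scaling (0.59) and 7 of the 8 settings that left out 1 library of these groups, with values of 0.52 to 0.92 over all 20. The exact two-sided permutation p was 0.0286 for myo-1, tnc-2 and tni-4 alike.

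The long transcripts as a class were lower relative to short ones in injured libraries at 96 h, and the part of this balance in the values of single genes was not tested. With the balance as a covariate and median-of-ratios scaling, tni-4 stood at -0.88, tnc-2 at -0.67 and myo-1 at 0.92, and myo-2 and myo-5 passed as well, at 0.58 and 0.46. The balance did not overlap between the groups at 96 h, so these values cannot tell it and injury apart. ceh-22 measured 0.87, 1.67, 0.83 and 0.59 RPKM in injured worms, against 0.81, 0.98, 0.64 and 0.41 in controls. These groups overlapped, and the fit over all features above 0 gave a log2 change of 0.27 (limma adjusted p = 0.375). At 8 h ceh-22 measured 0.17, 0.81, 0.44 and 0.82 RPKM in injured worms, against 0.26, 0.42, 0.50 and 0.54 in controls, with a log2 change of 0.15 (limma adjusted p = 0.858).

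The body wall troponin genes unc-27 and pat-10 were lower in injured worms at 96 h, while mup-2 did not pass, with a log2 change of 0.05 (limma adjusted p = 0.857). unc-27 averaged 88.9 ± 22.9 RPKM in injured worms and 214 ± 28 RPKM in controls, and pat-10 averaged 256 ± 68 RPKM in injured worms and 488 ± 42 RPKM in controls (SD, n = 4). Their log2 changes were -1.29 and -0.96 (limma adjusted p = 6.29e-06 and 0.00033), against -0.87 for tni-4 and -0.64 for tnc-2. The ratio of tni-4 to unc-27 was higher in injured worms, at 0.388 to 0.539, against 0.303 to 0.367 in controls (exact two-sided permutation p = 0.0286). tnc-2 over pat-10 was 0.0443 ± 0.0052 in injured worms and 0.0360 ± 0.0035 in controls (SD, n = 4), with overlap. myo-1 over unc-54 was 1.89 fold higher in injured worms without overlap, at 0.11 to 0.156 against 0.0619 to 0.0824 in controls. myo-2 over myo-3 and tnt-4 over mup-2 overlapped, with differences of 0.14 and -0.08 on the log2 scale. The ratios of myo-1 and myo-2 have different denominators, and the other pairings of these myosins were not formed. They therefore do not show that myo-1 and myo-2 differed from each other relative to body wall myosin. Of the 9 other myosin and troponin genes 1 was higher, tni-1 by 0.72, and 4 were lower, with tni-3 (-0.62) and tnt-2 (-0.73) beside unc-27 and pat-10. These are further troponin I and troponin T genes, and no ratio to them was formed. The changes of tni-1 and tni-3 lay above the -0.87 of tni-4. The higher ratio of tni-4 in injured worms is thus given for unc-27 only, and its direction depends on the troponin I gene chosen. Beside these values, body wall muscle markers were lower in 3 of 10 cases, near the 28.4% of all features called lower (32.8% were called higher). Their sum was 494.5 to 819 RPKM in injured worms and 896 to 1027 RPKM in controls. Germline markers were higher in 8 of 8, with a sum of 610.1 to 953 RPKM in injured worms and 220.5 to 331 RPKM in controls. Intestinal markers were lower in 5 of 6, and the part of these shifts was not tested.

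The injury effect on tnc-2 and tni-4 differed between times. It was lower at 96 h than at 48 h by 1.84 for tnc-2 (log2 difference -1.84, limma adjusted p = 0.00114) and by 1.31 for tni-4 (log2 difference -1.31, limma adjusted p = 0.00318), or 2 of 6 members against 14.9% of all features called, 0.662% higher and 14.3% lower. With median-of-ratios scaling these differences were -1.36 and -0.80, and the smallest over all 28 alternatives, with that scaling and without the 4 libraries over 5% rRNA, were -1.09 and -0.77. Against 8 h the effect at 96 h was lower for tnc-2 (-1.27), tni-4 (-0.94) and tnt-4 (-0.81), or 3 of 6 members against 43.7% of all features called, 23.6% higher and 20.1% lower. The differences of tnc-2 and tni-4 passed in all 28 alternatives for both pairs of times, and that of tnt-4 was lost in 8 of 28. The difference of the myosins between 96 and 48 h was -0.55 for myo-1, -0.78 for myo-2 and -0.48 for myo-5, none past the test (limma adjusted p = 0.216 to 0.394). Between 48 and 8 h 0 of 6 members passed as deposited by limma, and 0 had an unadjusted p below 0.05, where 36.9% of all features passed, 31.6% higher and 5.29% lower. With the length covariate 1 of 6 passed.

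The balance among the filament transcripts was followed within each library, as quantities chosen after the values were seen and therefore given without a test. myo-1 over tni-4 was 0.122 ± 0.071 in injured worms and 0.0631 ± 0.0067 in controls at 8 h, and 0.169 ± 0.049 and 0.0964 ± 0.0423 at 48 h (SD, n = 4). At 96 h it was 0.188 ± 0.018 in injured worms and 0.0650 ± 0.0138 in controls (SD, n = 4), and the ranges, 0.174 to 0.214 and 0.0522 to 0.0838, were far apart. myo-1 has 6457 exon bases and tni-4 821, so the balance of long and short transcripts can enter this ratio. The ratio was 0.216 in injured 8 h library 2, with a balance of 0.91, and 0.0542 in injured 8 h library 4, with -0.57. At 96 h the balance was -0.32 to -0.16 in injured worms and -0.08 to 0.17 in controls. Its part in the ratio was not tested. Among the 3 myosins, whose exon lengths differ by less than 200 bases, the share of myo-1 was 33.7 to 35.0% in injured worms and 25.6 to 29.7% in controls at 96 h. At 8 h it averaged 26.9% in injured worms and 29.1% in controls, and at 48 h it ranged over 31.6 to 36.5% in injured worms and 26.9 to 32.1% in controls, with overlap at both times. The share of myo-5 lay below that of the controls at 48 and 96 h, at 26.6 to 27.8% in injured worms against 28.7 to 35.0% in controls at 48 h and at 33.9 to 35.3% in injured worms against 37.6 to 38.2% in controls at 96 h. At 8 h it was 23.4 to 35.6% in injured worms and 29.9 to 36.6% in controls.

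**Figure D4:**
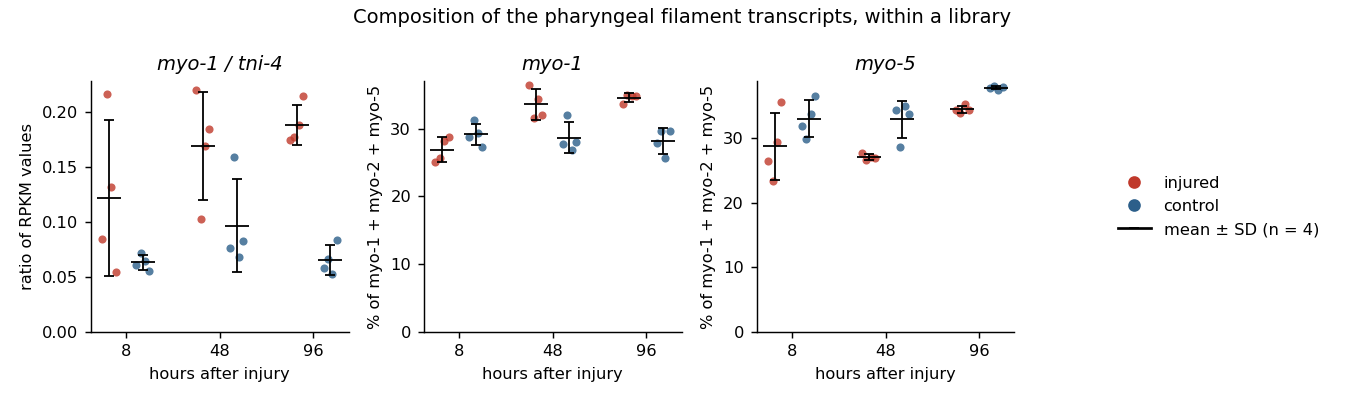
Ratio of myo-1 to tni-4 in RPKM, and the share of myo-1 and of myo-5 in the summed RPKM of the 3 myosin genes in percent (vertical axes, from 0), against hours after injury, with 4 injured libraries to the left of 4 control libraries and the mean and SD of each group. At 96 h myo-1 over tni-4 is 0.174 to 0.214 in injured worms and 0.0522 to 0.0838 in controls. The exons of myo-1 cover 6457 bases and those of tni-4 821, so the balance of long and short transcripts can enter this ratio.

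The myosins varied together from library to library. Over the 24 libraries, on median-of-ratios scaled log2 values, Pearson's r was 0.943 for myo-1 with myo-5, 0.910 for myo-1 with myo-2 and 0.856 for myo-2 with myo-5. For deviations from the group means the 3 values were 0.970, 0.947 and 0.952. Between myosins and troponins, r over the 24 libraries was 0.748 to 0.811 for tnt-4, 0.534 to 0.615 for tnc-2 and 0.292 to 0.485 for tni-4. For deviations from the group means it was 0.455 to 0.535, 0.018 to 0.184 and 0.246 to 0.407 in the same order. tnc-2 thus hardly varied with the myosins within groups. tnc-2 with tni-4 had an r of 0.725, and 0.537 within groups, and tnc-2 with tnt-4 had 0.691 and -0.004. The points share libraries, and pairs of long transcripts share the length balance, so these values describe the libraries. By the same measure the transcripts most like myo-1 were those of myo-5 (0.943), him-4 (0.942) and srap-1 (0.935). The closest to myo-2 was dyc-1 (0.930), the closest to myo-5 was tag-80 (0.945), the closest to tnc-2 was ZK822.2 (0.917), the closest to tni-4 was F53C11.9 (0.953) and the closest to tnt-4 was T22B11.4 (0.929). ceh-22, near the detection limit, reached at most 0.737, with nlf-1.

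Genes of the pharynx beyond the filaments were read as lists, whose counts stand beside the shares of all features called. These were 11% higher and 11.4% lower in injured worms at 8 h, 45.8% and 10.2% at 48 h, and 32.8% and 28.4% at 96 h, with 36.2% higher and 26.0% lower in controls of 96 h against 8 h. Whether a list differs from other genes was not tested. RNA of whole worms does not show in which tissue a listed gene was read. Exons of some listed genes overlap those of other coding genes, as those of eat-18, listed for excitability, do with lev-10 on the same strand. Of 7 tested genes for pharyngeal excitability, 6 were higher in controls at 96 h than at 8 h (median log2 change 1.07), among them eat-2, a nicotinic receptor subunit that drives pumping (1.17), the glutamate-gated chloride channel gene avr-15 (0.98), the potassium channel gene exp-2 (1.07) and the innexin gene inx-6 (0.83), beside the calcium channel genes egl-19 (1.40) and cca-1 (1.24). In injured against control worms 0 of 7 passed at 8 h by limma, with 1 at an unadjusted p below 0.05, while at 48 h 2 were higher, eat-2 by 1.05 and inx-6, which encodes a gap junction subunit, by 0.59. With median-of-ratios scaling the 48 h count was 1 higher and 1 lower. At 96 h 2 were lower, avr-15 by a log2 change of -1.44 and exp-2 by -0.57. Of 6 transcription factor genes of pharyngeal development, 5 were higher in controls at 96 h than at 8 h, with log2 changes of 1.81 for pha-4, the organ identity gene of the pharynx, 1.81 for ceh-34, 1.29 for peb-1, 0.68 for eya-1 and 0.55 for tbx-2. In injured worms 1 of the 6 was higher at 8 h, ceh-34 by 0.59, and 1 lower, eya-1 at -0.80. At 48 h 2 were higher, ceh-24 by 0.81 and peb-1 by 0.69, and 3 lower, eya-1 at -2.40, ceh-34 at -0.68 and pha-4 at -0.66, and with median-of-ratios scaling 1 was higher and 4 lower. At 96 h 4 of the 6 were lower in injured worms, by log2 changes of -0.98 for pha-4, -0.77 for ceh-34, -0.95 for tbx-2 and -2.45 for eya-1.

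The median log2 change of the gland genes in injured worms was 0.87, 0.57 and 0.13 at 8, 48 and 96 h, beside 0.68, 0.90 and 0.10 for the filament genes, and the difference between the lists was not tested. Of 6 tested gland genes, 4 were higher in injured worms at 8 h, 3 at 48 h and 1 at 96 h, when 2 were lower, and the 48 h count was 0 with median-of-ratios scaling. The gene with the largest value at 8 h, phat-5, stood at 1.42, and at 1.19 at 48 h. phat-3, of the mucin-like secreted family, was higher by 1.30 at 8 h and 0.73 at 48 h, and phat-6 by 0.88 and 0.84, with -0.84 at 96 h. phat-4 was higher by 1.39 at 96 h and phat-2 lower, at -0.65. Of 5 genes of the abu family, whose products are linked to the pharyngeal cuticle, 2 passed the filter. abu-14 was higher at 8 h by 1.37 and lower at 48 and 96 h, by log2 changes of -1.62 and -1.39, and abu-8 was lower at 48 and 96 h, by -1.54 and -1.72. Among 9 filament genes used by several muscles, 4 were higher in injured worms at 8 h, 1 at 48 h and 1 at 96 h, when 3 were lower. Those higher at 8 h were the paramyosin gene unc-15 (1.17) and the actin genes act-1 (0.92), act-4 (0.81) and act-3 (0.73). A further actin gene, act-2, was higher at 48 h by 0.94 and at 96 h by 0.76. Those lower at 96 h were the tropomyosin gene lev-11 (-1.11) and the myosin light chain genes mlc-1 (-1.23) and mlc-2 (-0.83). Genes named here beyond 4 of a list were chosen after their values were seen.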

How the data were processed

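RPKM values were deposited as the authors made them in CLC Genomics Workbench, on ce11. Mapping, annotation and strand settings are not given in the sources used here. The authors' columns of p-values and FDR values for their own contrasts were not used. Groups came from the labels. The columns of the table carry a group but no replicate number, so library numbers are names only, and the labels call the samples biological replicates without saying whether they were separate cultures. The p-values thus measure only the spread between these samples, which may be technical. No pair of libraries within a group was identical (0 of 36 pairs). Depth was estimated from the steps between low RPKM values and was not recovered for control 48 h library 4.

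A model of 6 group means on log2(RPKM + 0.5) was run in limma 3.58.1 (R 4.3.3, eBayes with trend and robust settings). It covered 14813 features that reached 1 RPKM in 4 or more of the 24 libraries. The 9 two-sided comparisons were adjusted by Benjamini-Hochberg over all features, with a threshold of 0.05. Fold changes are on this scale and understate those of low genes. Single genes and ratios were also compared by exact permutation over 70 arrangements (scipy 1.17.1), with a smallest p of 0.0286. The ratios of pharyngeal to body wall genes were added after the data had been seen. The fit was tested on simulated data. Coordinates and exon lengths came from the Ensembl annotation of the same assembly. Named list genes were up to 4 per list with the smallest p in any injury comparison. The members and lists were chosen with earlier results of these data known. Alternatives were other scalings, pseudocounts of 0.1 and 1, no filter, other variance settings, weights, fewer groups and leaving out libraries. Tables and figures were made with Python 3.11.15, numpy 2.4.6, pandas 2.3.3 and matplotlib 3.10.9.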

Additional observations from a re-analysis of the deposited data

Results flagged for a closer look

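tni-4 in the controls of 8 h held 1 library, at 31.71 RPKM, that stood apart from the other 3, which lay between 30.75 and 30.89 RPKM. Dixon's gap test picked it as the only one of 42 groups of members, where chance picks about 1 in 20, and the distance is below 1 RPKM.

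Of the 18 differences of the injury effect between times tested in the members, 5 passed. For tnc-2 the effect at 96 h differed from that at 48 h by -1.84 and from that at 8 h by -1.27 on the log2 scale. For tni-4 the differences were -1.31 and -0.94. For tnt-4 the difference between 96 and 8 h was -0.81. The value of tnt-4 was lost in 8 of 28 alternatives, each leaving out 1 library, and the other 4 held in all 28.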

How the results depend on the processing

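No paired analysis was possible because the columns of the table carry no replicate numbers. With median-of-ratios scaling, 3 further settings were chosen after seeing the data, namely without the 4 libraries over 5% rRNA, without control 48 h library 4, and with the length balance as covariate. Leaving out single libraries gave a range of 2 to 5 for the members called at 8 h, 1 to 3 at 96 h, 2 to 6 between 8 and 48 h in controls and 1 to 2 between 48 and 96 h in controls. The members called at 8 h numbered 5 with median-of-ratios scaling, with rescaling without rRNA, with quality weights, without the 4 libraries and in all 3 added settings, and 1 with only the groups compared. At 48 h they numbered 2 with median-of-ratios scaling, with all libraries and without control 48 h library 4. At 96 h they numbered 1 with no filter and 5 with the length covariate. Between 48 and 96 h in controls they numbered 0 without the 4 libraries on either scale and 0 with median-of-ratios scaling without control 48 h library 4, and 1 with only the groups compared. For the difference of the injury effect they numbered 1 with the length covariate between 48 and 8 h, and with quality weights 6 between 96 and 48 h and 5 between 96 and 8 h.

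tni-4 at 48 h turned to -0.093 with median-of-ratios scaling, by limma and by permutation, -0.12 without the 4 libraries, -0.073 without control 48 h library 4 and -0.060 with the length covariate. At 8 h it spanned -0.035 to 0.12 when single libraries were left out. tnt-4 at 96 h spanned -0.15 to 0.11 when single libraries were left out, and its lowest value over all 20 alternatives was -0.25. It was 0.020 with the length covariate. The difference of the effect on myo-1 between 96 and 8 h spanned -0.38 to 0.15 when single libraries were left out and was 0.28 with that covariate. None of these 4 values passed the test as deposited.

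Features called at 8 h numbered 5562 with median-of-ratios scaling, 6407 with quality weights, 5290 without the 4 libraries, 5316 with both changes, 5497 with that scaling without control 48 h library 4 and 5911 with the length covariate, against 3316. Between 48 and 96 h in controls 1915 became 5019 with quality weights, 797 without the 4 libraries, 771 with scaling in addition, 1270 with scaling without control 48 h library 4 and 1185 with only the groups compared, and 963 to 3820 when single libraries were left out. For the effect between 96 and 48 h 2209 became 5727, 1448, 1305 and 1357 under the first 4 of these settings, and 1222 to 3619 without single libraries. Between 96 and 8 h 6469 became 9821 with quality weights. The causes were not tested. Depth limits ceh-22 most, with as few as 9 estimated reads.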
